A study of Mus musculus with 16 samples.

Results

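Integrins are the transmembrane receptors, each made of 1 α and 1 β subunit, that fasten a cell to its surroundings. Laminins are the cross-shaped glycoproteins of the basement membrane, each assembled from 1 α, 1 β and 1 γ chain, and several integrins bind them. Integrins pass force and signals to the actin cytoskeleton through adaptors such as talin and kindlin, and which subunits a cell makes sets which ligands it can hold. The genes described here are the 38 protein-coding genes of GENCODE vM21 whose symbol begins with Itga, Itgb, Lama, Lamb or Lamc followed by the number or letter of a subunit. They comprise 18 integrin α genes, 9 integrin β genes and 11 laminin chain genes, of 21938 protein-coding genes in all. Itgb3bp, Itgbl1, Itgb1bp1 and Itgb1bp2, which encode no integrin subunit, were left out by this rule.

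ChIP-seq, the sequencing of chromatin fragments pulled down with an antibody, was carried out on tumors of a mouse model of clear cell sarcoma, a soft tissue cancer defined by the EWSR1::ATF1 fusion. Of 16 labelled samples, 4 each carry the antibodies V5, RNAPOL2 and H3K27ac, and 4 are input chromatin. All have the genotype EWSR1::ATF1: a V5-tagged fusion cDNA at Rosa26 behind a loxP-flanked stop, with green fluorescent protein translated from the same transcript, in mice of mixed 129/SvJ and C57Bl/6 background. TATCre protein was injected into the hindlimb at 4 weeks of age, so any cell type at that site could have recombined, and no tumor without the fusion was profiled. V5 marks the fusion protein, which keeps the DNA-binding domain of ATF1. RNAPOL2 marks phosphorylated RNA polymerase II, and H3K27ac marks histone H3 acetylated at lysine 27, a modification of active promoters and enhancers.

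The 3 deposited lists, 1 for each antibody, hold 10665 V5, 20375 RNAPOL2 and 27552 H3K27ac peaks. Each peak has a whole-number score whose scale is not stated, with a median of 230 for V5, 246 for RNAPOL2 and 212 for H3K27ac, and scores of different lists were not compared. The study also counts a larger set of V5 sites than this list, which was not analysed here, and every absence of V5 below refers to the list. No list gives a value per tumor or a read depth, so no error could be attached to a peak, no test was run, and a gene without a peak may be bound below the calling threshold. The tumors were whole tissue, in which fewer cells of a type and less signal per cell cannot be told apart. Of 6 genes of the melanocytic program of clear cell sarcoma, Mitf and Pmel had RNAPOL2 within 3 kb of a start site, with a peak that Pmel shared with Cdk2. Dct had V5 alone with a score of 218, and Sox10, Mlana and Tyr had no peak there in any list. None of 5 skeletal muscle markers had such a peak in any list. H3K27ac was at 7 of 8 leukocyte markers and 3 of 4 endothelial markers, beside 58.6% of all coding genes. RNAPOL2 was at 2 of the 8 and 1 of the 4, beside 53.5%. The H3K27ac scores ran from 34 (Cd3e) to 1554 (Cd68) at the leukocyte markers and from 52 (Cdh5) to 346 (Pecam1) at the endothelial ones. Of 4 epithelial markers, 2 had H3K27ac and 0 had RNAPOL2.

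A gene was counted as having a promoter peak when a peak touched the 3 kb on either side of any of its annotated transcription start sites (TSSs). V5 was present at 8 of the 38 genes (21.1%), beside 16.6% of all protein-coding genes. RNAPOL2 was present at 22 (57.9%), beside 53.5%, and H3K27ac at 30 (78.9%), beside 58.6%. RNAPOL2 and H3K27ac together were at 22 (57.9%), beside 52.2%. All 22 genes with RNAPOL2 thus also carried H3K27ac, as did 97.5% of all coding genes with RNAPOL2. All 3 lists met at 7 genes (18.4%), beside 15.9%, but at 4 (10.5%), beside 14.7%, with windows of 1 kb. No promoter peak of any list was found at 8 genes (21.1%), beside 39.9%. The V5 and RNAPOL2 shares therefore lay within 5 percentage points of those of coding genes in general, and the H3K27ac share lay above it. The adhesion genes have a median of 5 TSSs against 3 for all coding genes, which gives them more windows in which a peak can fall. With the annotated gene start as the only TSS, V5 was present at 5 genes (13.2%) beside 14.3% of all, RNAPOL2 at 20 (52.6%) beside 50.6%, and H3K27ac at 27 (71.1%) beside 55.7%.

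**Figure D1:**
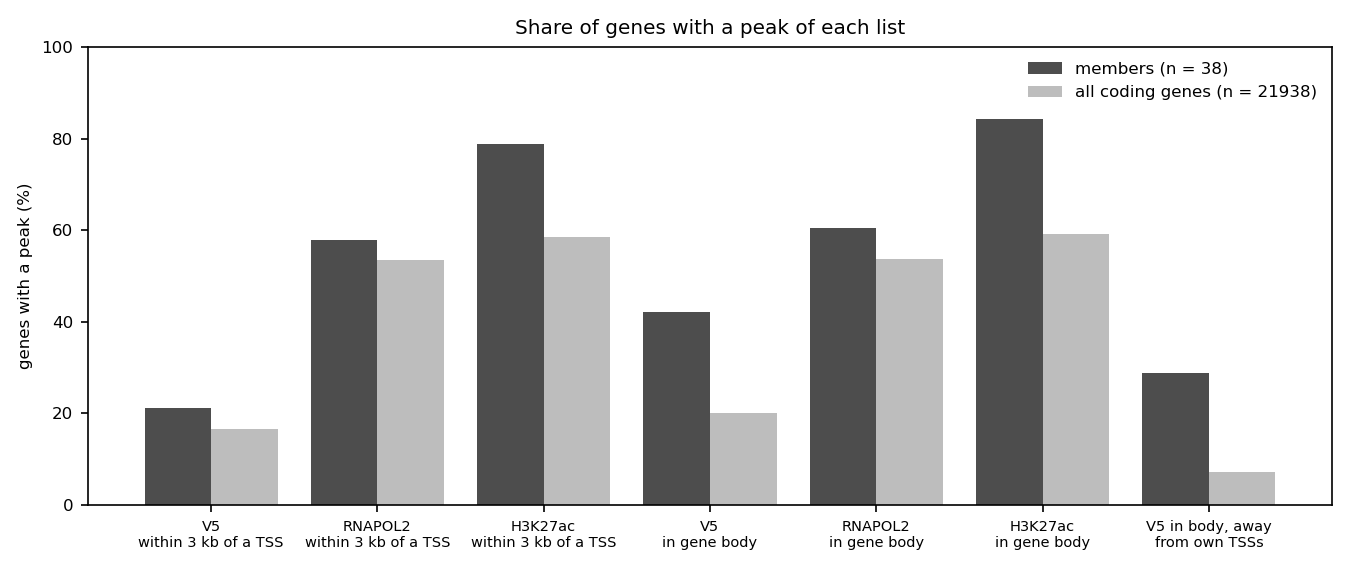
Share of genes (%) with at least 1 peak of each list, for the 38 integrin and laminin genes (dark bars) and for all 21938 protein-coding genes (light bars). The bars are close for V5 and RNAPOL2 near TSSs, and the adhesion genes stand higher for H3K27ac and for V5 inside gene bodies.

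Inside gene bodies the shares differed more. V5 fell in the body of 16 of the 38 genes (42.1%), beside 20.0% of all coding genes. RNAPOL2 fell in 23 (60.5%), beside 53.7%, and H3K27ac in 32 (84.2%), beside 59.1%. With only the upper 50% of peaks by score, RNAPOL2 fell in 44.7% of the 38 genes, beside 46.7%. V5 peaks more than 3 kb from every TSS of the gene itself were found in 11 genes (28.9%), beside 7.1%. Of these 28 peaks, 16 were in Itga9 or Itgb6. The adhesion genes are long, with a median of 64.1 kb against 17.4 kb, and a longer body can collect more peaks. Per 100 kb of body the 38 genes held 1.03 V5 peaks against 0.663 over all coding genes, and 0.77 when Itga9 alone was left out. Counting only peaks away from own TSSs, the values were 0.763 against 0.31, and 0.533 without Itga9. The length was still that of whole bodies with promoter windows, so these are not densities of the sequence away from TSSs. RNAPOL2 was sparser in these bodies than in coding genes at large, at 1.47 against 1.9 peaks per 100 kb. For peaks away from TSSs, over the same length, the order turned, at 0.626 against 0.529, and turned back to 0.385 without Itga9. H3K27ac was denser per 100 kb of whole body, at 2.67 against 2.18 counting every peak, and 1.31 against 0.732 counting those away from TSSs.

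For RNAPOL2 and H3K27ac the scores gave a different order from the counts. The highest promoter peak of each gene had a median score of 543.5 for RNAPOL2, against 912 for all coding genes with one. The corresponding medians for H3K27ac were 448.5 and 863. For V5 they were 290.5 over the 8 genes and 196 over all. The adhesion promoters that carried RNAPOL2 or H3K27ac thus had lower scores than promoters in general, and the V5 scores of the 8 genes fell on both sides of the median of all, 4 below it and 4 above.

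**Figure D2:**
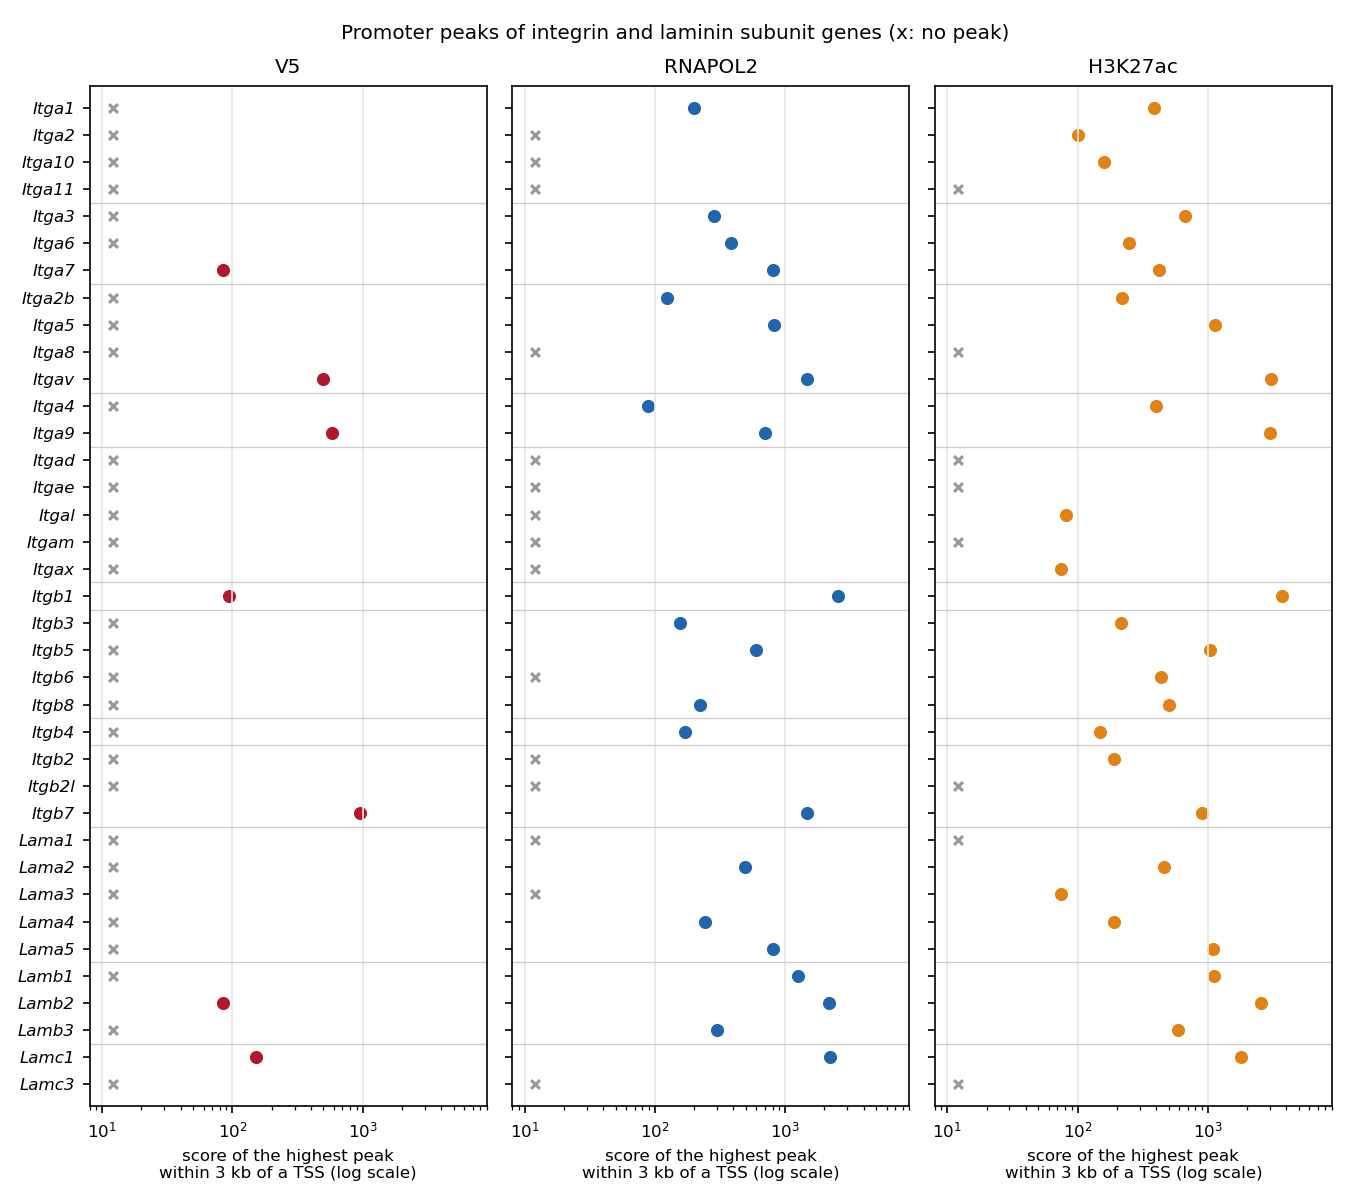
Score of the highest peak within 3 kb of a TSS (log scale) for 37 of the 38 genes in the V5, RNAPOL2 and H3K27ac lists, with horizontal lines between subgroups and grey crosses for genes without a peak. V5 points are few and lie between 84 and 953, while Itgb1 has the highest RNAPOL2 and H3K27ac scores of the 38 genes.

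Itgb1 encodes the β1 subunit, the partner of most integrin α subunits. It lies at chr8:128685654-128733200 on the plus strand of GRCm38. The RNAPOL2 peak over its start had a score of 2526, rank 1155 of the list, and its H3K27ac peak had 3696, rank 508, and both were the highest promoter scores among the 38 genes. The V5 peak over the same start, chr8:128685141-128686010, scored 94 and ranked 8778 of 10665. It held no TGACGTCA, the canonical ATF/CREB motif, no variant of the form TGANNTCA and no TGAGTCA, the AP1 motif. The 250 bases before the RefSeq start, chr8:128685404-128685653, are shown because V5, RNAPOL2 and H3K27ac all covered them.

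Itgb1 promoter, plus strand: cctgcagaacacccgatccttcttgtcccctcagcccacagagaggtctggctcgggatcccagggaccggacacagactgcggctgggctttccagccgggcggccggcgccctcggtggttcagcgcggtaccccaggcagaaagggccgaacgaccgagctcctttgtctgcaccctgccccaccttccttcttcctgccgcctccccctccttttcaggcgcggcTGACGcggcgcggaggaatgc

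The capitals mark TGACG, the first 5 bases of the canonical palindrome, beginning at base -21 from the start. Promoter windows of RefSeq (GRCm38.p6, 250 bases before to 50 after a start) were given for 24 of the 38 genes, in 27 windows. TGACG on either strand was in 5 of the 27 (18.5%) and in 20.8% of all 32851 windows, and this core was added after the data had been seen. TGACGTCA was in 0 of the 27 and in 1.79% of all. Another TGANNTCA was in 1 (3.7%), that of Lamb3, beside 12.5% of all. TGAGTCA was in 2 (7.41%), those of Itga9 and Itgax, beside 5.2%. These are matches of letters only, on both strands, and a window without them may hold other sites.

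The α subunit genes are given by ligand class. Among the 4 collagen-binding genes, Itga1, Itga2, Itga10 and Itga11, V5 was at 0 promoters, RNAPOL2 at 1 and H3K27ac at 3. Itga1 was the gene with RNAPOL2, at a score of 201, in a peak that also lay within 3 kb of a TSS of Gm49395, and the H3K27ac peak there (384) was nearest to Gm49395. Its body held V5 peaks of 502 (rank 2595) and 377 (rank 3349), 138 and 83.5 kb from the start. The coding TSSs nearest to them were those of Itga2 and Pelo. A far higher RNAPOL2 peak inside Itga1, with a score of 2574, lay at the start of Pelo, a gene nested in it that encodes a ribosome rescue factor. Itga2 and Itga10 had H3K27ac but neither RNAPOL2 nor V5 near a TSS, with scores of 101 and 160, and Itga2 held a V5 peak of 113 in its body. Itga11 had no peak in any list, although a V5 peak of score 1375 lay 27.5 kb beyond its end.

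The 3 laminin-binding α genes, Itga3, Itga6 and Itga7, all carried RNAPOL2 and H3K27ac, with top RNAPOL2 scores of 282, 382 and 805. Itga7, the laminin receptor subunit best known from muscle, was the one with V5. That peak, chr10:128935931-128936430, scored 84, ranked 9095, lay 2.36 kb into the gene in an intron, and met a RNAPOL2 peak of 246. The RNAPOL2 and H3K27ac promoter peaks of Itga6, whose subunit also pairs with β4, lay over a TSS more than 41 kb inside the annotated gene, and no peak lay at the annotated start.

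Among the subunits that recognize the RGD sequence of fibronectin and vitronectin, Itga5, Itgav and Itga2b had RNAPOL2 and H3K27ac, and Itga8 had no peak in any list. Itga5, which forms the classical fibronectin receptor with β1, had scores of 820 and 1136 and no V5 within 344 kb of the gene. Itgav, whose subunit pairs with several β chains, had 1483 for RNAPOL2 and 3083 for H3K27ac, rank 858. Itgav carried 2 V5 peaks near its start. One covered the start itself, chr2:83724101-83724850, with a score of 43 and rank 10389. The other, chr2:83725131-83726040, had 495 and rank 2650. Itga2b, the platelet subunit, had low scores of 123 and 219 at TSSs inside the gene. Of 3 platelet markers only Gp1bb had RNAPOL2 (157), in a peak also near Gm49601, and none had H3K27ac. The Itgav peak is shown around its AP1 motif, in capitals on the plus strand, at chr2:83725688-83725744.

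Itgav: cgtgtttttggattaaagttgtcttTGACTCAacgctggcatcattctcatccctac

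Itga4 and Itga9 encode the related subunits that bind VCAM1, osteopontin and tenascin C. Itga4 had RNAPOL2 of 89, the lowest of the 22 genes with it, H3K27ac of 397, and no V5. Itga9 stood apart in the number of its peaks. The gene spans 294.3 kb at chr9:118606690-118901003 on the plus strand, and its body held 12 V5, 11 RNAPOL2 and 14 H3K27ac peaks. Only 16 of all coding genes held more V5 peaks in the body, 99 more RNAPOL2 peaks and 57 more H3K27ac peaks. At the start itself V5 scored 76, chr9:118606081-118607140, rank 9387, beside RNAPOL2 of 694 and H3K27ac of 3025, rank 901. A second V5 promoter peak, chr9:118806631-118807680, with a score of 579 and rank 2232, covered a TSS 200 kb into the gene, with H3K27ac of 49 and no RNAPOL2.

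The V5 peak with the highest score of all 39 in or near the adhesion genes lay 99.6 kb into Itga9. It spans chr9:118705021-118707540, within an intron, with a score of 4404 and rank 90 of 10665. It overlapped a RNAPOL2 peak of 98 and an H3K27ac peak of 474, the last of 5 H3K27ac peaks that chain into a cluster of 34.6 kb. The other 9 V5 peaks of Itga9 away from its TSSs had scores of 113 to 547. The 10 RNAPOL2 peaks of Itga9 away from its TSSs scored 32 to 98, all far below the 694 at the start. The leading V5 peak held the variant TGACATCA in 2 copies, 559 and 716 bases after its middle, then a string of 5 TGA or TCA units and an AP1 motif. A string was a run of more than 4 such units with at most 5 bases between neighbours. The stretches are given from the plus strand with motif or string in capitals, at chr9:118706805-118707029, chr9:118707077-118707167 and chr9:118707277-118707343.

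Itga9 variants: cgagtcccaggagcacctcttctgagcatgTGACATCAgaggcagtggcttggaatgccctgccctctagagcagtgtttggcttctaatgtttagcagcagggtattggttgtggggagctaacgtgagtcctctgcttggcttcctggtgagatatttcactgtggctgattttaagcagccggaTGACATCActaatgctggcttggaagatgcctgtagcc
Itga9 string: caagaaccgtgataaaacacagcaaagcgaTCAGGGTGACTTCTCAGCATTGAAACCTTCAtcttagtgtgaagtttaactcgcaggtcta
Itga9 AP1 motif: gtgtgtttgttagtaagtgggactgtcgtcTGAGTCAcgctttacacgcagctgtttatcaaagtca

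**Figure D3:**
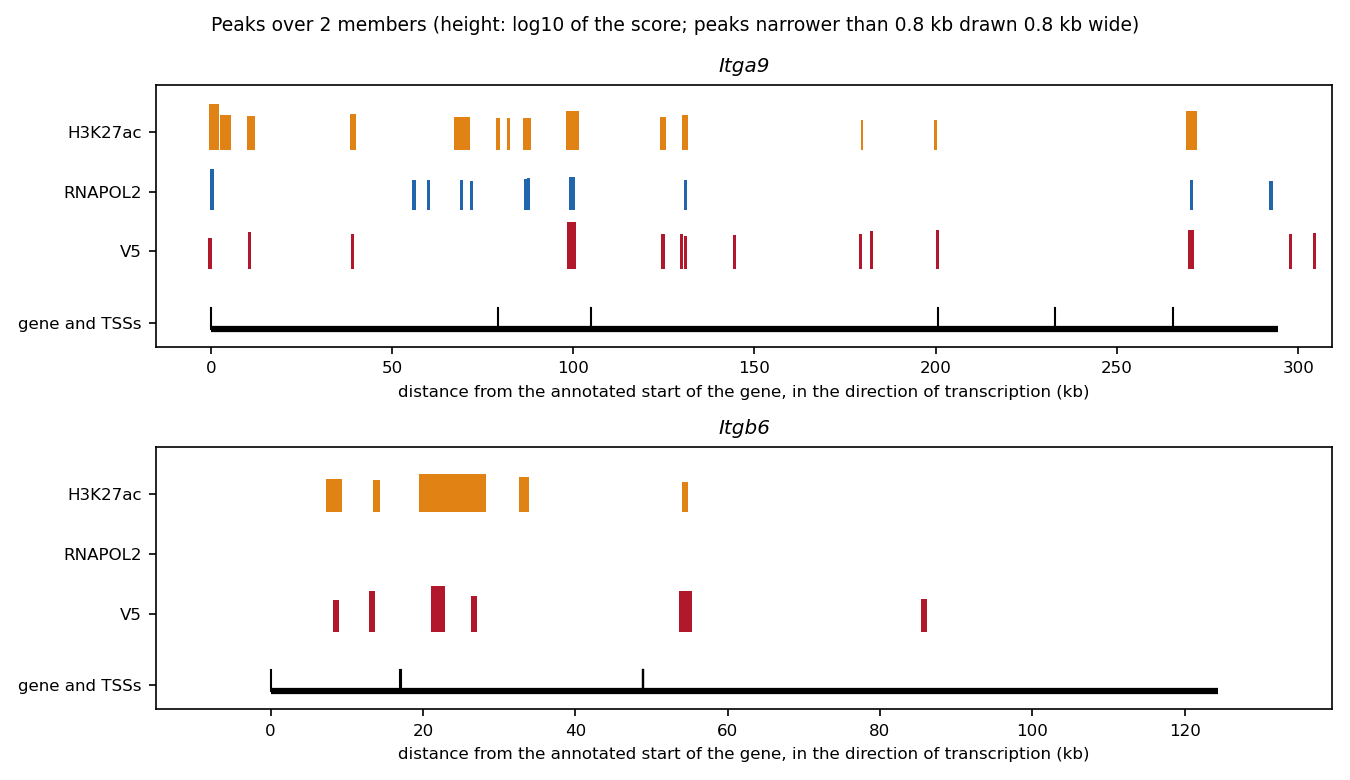
Peaks over Itga9 and Itgb6 by distance from the annotated gene start (kb, in the direction of transcription), with rectangles for V5, RNAPOL2 and H3K27ac peaks whose height follows log10 of the score, and ticks on the black gene line for TSSs. The Itga9 V5 peak of 4404 stands at 99.6 kb with RNAPOL2 and H3K27ac, whereas Itgb6 carries 6 V5 peaks and no RNAPOL2.

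The 4 β genes other than Itgb1 whose products partner αv all had H3K27ac near a TSS, and 3 had RNAPOL2, but 0 had a V5 promoter peak. Itgb5 had RNAPOL2 of 599 and H3K27ac of 1040 at its start. Its body held 11 H3K27ac peaks, more than any other of the 38 genes except Itga9, with 1 V5 peak of 196 at 42.7 kb. Itgb3 and Itgb8 had RNAPOL2 of 157 and 223, and Itgb8 carried 1 V5 peak of 313 at 34.2 kb. Itgb6, whose subunit is known chiefly from epithelia and from the activation of latent TGF-β, had no RNAPOL2 peak anywhere, yet its body held 6 V5 and 5 H3K27ac peaks. Its H3K27ac near a TSS came from internal start sites, including a peak 8.75 kb wide with a score of 434.

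The highest V5 peak of Itgb6, chr2:60699701-60701560, scored 2921, ranked 244 and lay 22 kb into the gene on the minus strand, within an intron and on that wide H3K27ac peak. Further V5 peaks of 665 lay at chr2:60667351-60669070 and chr2:60708951-60709770, both at rank 1950. The remaining 3 scored 67, 94 and 185. A cluster of 4 H3K27ac peaks over 26.8 kb held 4 of the 6 V5 peaks. The leading peak held no TGACGTCA and no variant of it, but AP1 motifs on each side of its middle and a string of 5 units. They are shown from the plus strand at chr2:60700144-60700210, chr2:60701193-60701259 and chr2:60701265-60701345, to set beside Itga9, the other gene of the 38 with a string in a V5 peak.

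Itgb6 AP1 motif, first: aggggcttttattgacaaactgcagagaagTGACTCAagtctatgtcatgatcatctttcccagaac
Itgb6 AP1 motif, second: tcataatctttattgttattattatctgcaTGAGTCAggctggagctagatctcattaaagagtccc
Itgb6 string: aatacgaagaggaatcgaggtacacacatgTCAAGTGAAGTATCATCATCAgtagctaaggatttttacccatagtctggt

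Itgb4 encodes the hemidesmosome subunit that pairs with α6 and binds laminin. It had RNAPOL2 of 170 and H3K27ac of 150 at its start and no V5 in the gene. A RNAPOL2 peak of 690 near its end lay nearest to the start of Galk1, which encodes galactokinase.

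The 8 genes of the leukocyte integrins were mostly without RNAPOL2. Itgal, Itgam, Itgax, Itgad and Itgae encode α subunits, and Itgb2, Itgb2l and Itgb7 encode β subunits. RNAPOL2 was at 1 of the 8 and H3K27ac at 4, whereas of the other 19 integrin genes 14 had RNAPOL2 and 17 had H3K27ac. The H3K27ac scores at Itgal, Itgax and Itgb2 were 82, 74 and 189. Itgam and Itgb2l had no peak in any list, and Itgad and Itgae each had 1 H3K27ac peak inside the gene, that of Itgae at the start of Haspin. Among the 8 leukocyte markers, RNAPOL2 was at Spi1 (255) and at Cd68, whose peak was shared with Eif4a1 and Mpdu1, and the part of leukocytes in the values of these integrins was not tested.

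Itgb7 was the exception among the leukocyte genes. Its product pairs with α4 or αE on lymphocytes that home to the gut. A H3K27ac peak 10.4 kb wide with a score of 899 covered its start, and the gene lies at chr15:102215995-102231944 on the minus strand. V5 lay 1.1 kb before the start with a score of 953, chr15:102232681-102233410, rank 1300, the highest V5 promoter score of the 38 genes. It also lay 1.11 kb after the start with 680, chr15:102230221-102231450, rank 1896, and 4.56 kb into the gene with 565. RNAPOL2 at the start of Itgb7 belonged to a peak 20.1 kb wide, with a score of 1466, whose middle was nearest to Rarg, the gene of retinoic acid receptor γ. That value can therefore not be told apart from the neighbour's. Itgb7 also had a RNAPOL2 peak of 289 over a TSS 15.7 kb from its start, and one of 87 in its body. No other coding gene's TSS lay within 3 kb of the peak of 289. That peak ran past the end of the gene and overlapped no H3K27ac peak. All 3 V5 peaks of Itgb7 held an AP1 motif, and the promoter stretches are shown from the plus strand at chr15:102232921-102232977 and chr15:102231158-102231214.

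Itgb7, before the start: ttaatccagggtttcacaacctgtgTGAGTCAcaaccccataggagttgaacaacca
Itgb7, after the start: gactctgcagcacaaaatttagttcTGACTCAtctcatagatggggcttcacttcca

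Among the 5 laminin α genes, V5 was at 0 promoters, RNAPOL2 at 3 and H3K27ac at 4. Lama5, whose chain is widespread in adult basement membranes, had RNAPOL2 of 805 and H3K27ac of 1104 at its start and no V5 in the gene. Lama4, a chain of vessel and mesenchymal basement membranes, had 242 and 192. Lama2, the chain of the muscle basement membrane, had 488 and 463. Lama1, a chain of the early embryo, had no peak in any list. Lama3, a chain of the epithelial anchoring laminin, had H3K27ac of 74 and no RNAPOL2 near a TSS.

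V5 lay inside Lama2 and Lama3 instead. The higher of the 2 Lama2 peaks, chr10:27422041-27423410, scored 2464, ranked 320 and touched an annotated exon 197 kb into this gene of 639.7 kb. It met a H3K27ac peak of 91 and no RNAPOL2. The other, 384 kb into the gene, scored 207 on neither H3K27ac nor RNAPOL2, with 1 AP1 motif and 2 variants. The higher peak held 1 variant motif and no AP1 motif, and the motif is shown from the plus strand at chr10:27422489-27422556.

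Lama2: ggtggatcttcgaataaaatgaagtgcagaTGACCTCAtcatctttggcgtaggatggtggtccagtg

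The 2 V5 peaks of Lama3 lay 195 and 206 kb into the gene with scores of 153 and 754, in a cluster of 3 H3K27ac peaks. The higher one, chr18:12539711-12540700, ranked 1700. The lower one held the only canonical TGACGTCA among the 39 V5 peaks and overlapped RNAPOL2 of 135.

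The laminin β genes all carried RNAPOL2 and H3K27ac. Lamb1, a β chain of several laminins, had 1262 and 1120 at its start and 7 RNAPOL2 peaks in its body. That body also held 1 V5 peak of 58 at 37.9 kb. Lamb2, a β chain of muscle and kidney, had RNAPOL2 of 852 and H3K27ac of 1719 at its own start. Higher peaks of 2184 (rank 1538) and 2547 lay at its end, and their nearest coding TSS was that of Usp19, a deubiquitinase gene. The V5 peak counted for Lamb2, chr9:108490501-108491080, with a score of 85 and rank 9085, lay there too, 11.1 kb from the Lamb2 start. The highest peaks of Lamb3, an epithelial chain, were 301 for RNAPOL2 and 588 for H3K27ac, and both lay nearest to G0s2, a lipolysis inhibitor gene. The peak over a TSS of Lamb3 that was nearest to no other gene was H3K27ac of 91.

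Among the γ genes, Lamc1 encodes the chain shared by most laminins. Its start had RNAPOL2 of 2225, rank 1492, and H3K27ac of 1798, in the upper part of the lists. Its V5 peak, chr1:153225891-153226550, score 153 and rank 6916, lay 107 kb from that start, near an internal TSS toward the end of the gene. RNAPOL2 there scored 39. Lamc3 had no peak in any list, although a V5 peak of 3047, rank 227, lay 27.5 kb beyond its end.

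Of the 8 genes counted with V5 near a TSS, 5 had it within 3 kb of the annotated gene start, namely Itga7, Itga9, Itgav, Itgb1 and Itgb7, and of these Itga9, Itgav and Itgb1 had it over the start itself. The others, Lamb2 and Lamc1 among them, had it near internal or downstream TSSs. A window of 5 kb would add Itga2 and Itgb6, whose nearest V5 peaks lay 3 to 5 kb from an own TSS, and give 10 genes.

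Over both families, 39 V5 peaks lay within 3 kb of a TSS or in the body, in 16 genes. Their median score was 207, against 230 for all 10665 V5 peaks. Near TSSs there were 11, and away from TSSs there were 28, of which 16 were in Itga9 or Itgb6 and 12 in 9 other genes. Of the 28, 19 lay wholly within introns and 9 touched an annotated exon. All 11 near TSSs overlapped H3K27ac and 9 overlapped RNAPOL2. Of the 28 others, 22 overlapped H3K27ac (78.6%) and 5 overlapped RNAPOL2 (17.9%). Of all coding genes, 3640 had V5 within 3 kb of a TSS and 3484 had all 3 lists there. The full V5 list was not split by place, so whether this contrast is particular to these genes cannot be told. For the 39 together the shares were 84.6% for H3K27ac and 35.9% for RNAPOL2, beside 73.4% and 42.0% of all V5 peaks. These peaks share genes and are not independent of each other.

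The motifs were searched on both strands over the whole of each peak, and a peak could hold more than 1. TGACGTCA was in 1 of the 39 (2.56%), beside 8.51% of all V5 peaks. Another sequence of the form TGANNTCA was in 18 (46.2%), beside 40.3%. TGAGTCA was in 11 (28.2%), beside 26.0%, and a string in 2 (5.13%), beside 10.2%. In the central 200 bp alone TGAGTCA was in 2 (5.13%), beside 10.4%, and a string in 0, beside 4.35%, so most of the AP1 motifs shown lay off the middle of their peaks. At least 1 of the 3 motifs was in 23 (59.0%), the same share as in all V5 peaks (59.0%). In the central 200 bp this held for 10 (25.6%), beside 30.4%. By place, TGAGTCA was in 4 of the 11 peaks near TSSs, those of Itgav and Itgb7 among them, and another TGANNTCA was in 2 of them, but in the central 200 bp these counts were 1 and 0. Away from TSSs the variants were in 16 of 28 and TGAGTCA in 7. The full V5 list was not split by place for the motifs either. The V5 peaks over the starts of Itgav, Itga9 and Itgb1, with scores of 43, 76 and 94, held none of the 3 motifs. The variant TGACATCA occurred in 3 peaks, in Itga9 and Lamb1.

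**Figure D4:**
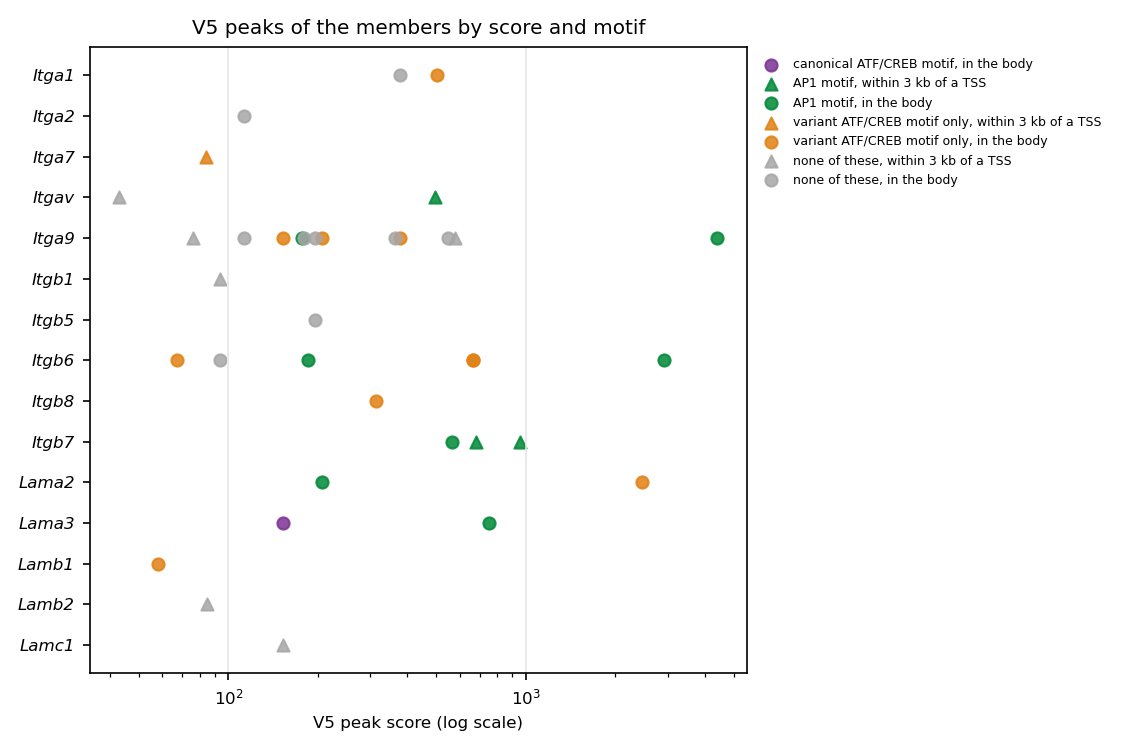
Score (log scale) of 37 of the 39 V5 peaks by gene, with triangles for peaks within 3 kb of a TSS, circles for peaks elsewhere in the body, and color for the motif held. The 3 highest peaks lie in Itga9, Itgb6 and Lama2, all away from TSSs, and the canonical motif appears once, in Lama3.

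Clusters of at least 3 H3K27ac peaks, each within 12 kb of the next, touched 15 of the 38 genes (39.5%), beside 15.7% of all coding genes. A long gene meets a cluster more readily, as it does any peak. The cluster held at least 1 V5 peak at 11 genes (28.9%), beside 9.39% of all coding genes, and at 4 of the 11 (Itga3, Itga10, Itgb2 and Itgb4) that peak lay outside the gene. Those with the most V5 peaks were at Itgb6 and Itgb7, with 4 each. The cluster of Itgb7 extended beyond the gene over 35.1 kb. The clusters at Itga2b, Itgax, Lama4 and Lamb1 held 0 V5 peaks.

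Since an integrin needs both its subunits, the promoter state was also read by complex. Of 24 known αβ pairs, 14 had RNAPOL2 and H3K27ac at both genes. V5 was at 1 or both of the genes in 12 of these 14, and at both in 3, which were α7β1, α9β1 and αvβ1. Most of the 12 share Itgb1 or Itgav, so they are not separate events. The pairs of Itgb2 with Itgal, Itgam, Itgax and Itgad had RNAPOL2 with H3K27ac at 0 of their genes. Of 14 laminin trimers, 6 had RNAPOL2 and H3K27ac at all 3 genes: those of Lama2, Lama4 or Lama5 with Lamb1 or Lamb2 and Lamc1. All 6 include Lamc1 and so carried V5 at 1 gene or more, through the Lamc1 peak at an internal TSS and, in some, the Lamb2 peak beside Usp19. Counting V5 only within 3 kb of the annotated gene start, 0 of the 6 had it. Of the 14 trimers, 0 had V5 at all 3 genes.

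Genes that work with these receptors were counted in the same way. Of 42 listed adaptors, ligands and co-receptors, V5 was at 13 promoters (31.0%, beside 16.6% of all coding genes), RNAPOL2 at 31 (73.8%, beside 53.5%), H3K27ac at 35 (83.3%, beside 58.6%) and all 3 at 13 (31.0%, beside 15.9%). The lists were drawn from known adhesion biology and their shares were not tested. Among 25 focal adhesion adaptors and kinases V5 was at 10 (40.0%), RNAPOL2 at 20 (80.0%) and H3K27ac at 22 (88.0%). Those with V5 were the actin linkers Vcl (52), Parva (91) and Parvb (694), the kinase Src (66), Ilk (235), and the ILK partner Lims1 (35). Kindlin-2 (Fermt2, 187), Zyx (59), Tns1 (170) and Tns2 (76) also had it, with the V5 score of the highest promoter peak in parentheses. The RNAPOL2 peak of Ilk lay near the starts of Rrp8 and Taf10 too, and that of Tns2 near Eif4b. The highest V5 score in this list was at Parvb, and the others were at or below 235.

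Of 12 other ligands and basement membrane partners, V5 was at 2, Fn1 (277), which encodes fibronectin, and Thbs1 (325), which encodes thrombospondin-1. RNAPOL2 was at 7 of the 12 and H3K27ac at 8. The α4 and α9 ligand genes Tnc and Spp1 had no promoter peak in any list, and Vcam1 had H3K27ac of 41 alone. Of 5 other laminin receptors and tetraspanins, V5 was at 1, Cd81 (129), RNAPOL2 at 4 and H3K27ac at 5. The RNAPOL2 peak of Cd81 lay near Tssc4 as well, and that of Cd151 near Cracr2b, Polr2l and Tspan4. Dag1, the dystroglycan gene, had RNAPOL2 of 1796 and no V5.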

How the data were processed

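The authors aligned ChIP-seq reads to mm10 with BWA-MEM (BWA 0.7.10-r789), dropped duplicates, called peaks over input with MACS2 2.2.6 (broad mode for H3K27ac) and discarded ENCODE denylisted regions, as the submitters' processing notes and the study's methods state. The deposited value of each peak is a score set by the authors. Its scale, and whether replicates were pooled, are not given in the sources used here. The methods name more V5 and RNAPOL2 samples than the 4 labelled, so which entered each list is not known. Depth per sample is not in the lists.

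Genes and TSSs came from GENCODE vM21 (GRCm38). Peaks overlapped when they shared at least 1 base. Of the 38 genes, 1 is included in the counts but not reported here by its own values. Shares over all 21938 coding genes stand beside the counts over all members, subgroup counts have none of their own, and no test was run. Named were the other V5 peaks near a TSS, the 5 highest V5 peaks in bodies, the 3 highest promoters of the other lists, and partner genes with V5. Other values, and the Itgb6, Lama2 and Itgb1 sequences, were chosen after values were seen. Members, lists and rules were chosen with earlier results of these data known. Sequence was read from GRCm38, and promoter windows from RefSeq (GRCm38.p6). Overlap and motif functions were tested on simulated data. Python 3.11.15, numpy 2.4.6, pandas 2.3.3, pysam 0.24.0 and matplotlib 3.10.9 were used. The alternatives changed the window, the TSSs, the overlap rule, the score range and the motif window.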

Additional observations from a re-analysis of the deposited data

How the results depend on the processing

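Of 39 alternative values, 31 lay within 1.5 times the main value and 8 did not, and the order against all coding genes turned in places. V5 near a TSS was 10.5% beside 15.2% of all at 1 kb and 13.2% beside 14.3% at the gene start, all 3 lists 10.5% beside 14.7% and 13.2% beside 13.8% under the same settings, and RNAPOL2 39.5% beside 46.9% near a TSS and 44.7% beside 46.7% in bodies with the upper 50%. V5 near a TSS, at 8 genes, was counted at 5 with the annotated gene start alone, at 4 with a window of 1 kb and at 4 with the upper 50% of peaks by score. All 3 lists met at 4 genes with 1 kb and at 3 with the upper 50%, against 7. V5 in bodies fell from 16 genes to 9 with the upper 50%, and RNAPOL2 in bodies fell from 23 to 10 without the promoter windows. V5 peaks with a motif numbered 10 in the central 200 bp (25.6%, beside 30.4% of all V5 peaks), against 23. Each of these settings admits fewer peaks, TSSs or bases. Leaving out peaks nearer to another coding gene, chosen after seeing the data, gave 7 genes for V5, 21 for RNAPOL2, 29 for H3K27ac and 6 for all 3. No paired analysis was possible because each antibody has 1 peak list and no values per sample, and no replicate could be left out for the same reason. The lists carry no depth per tumor, which limits what an absent peak can show.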

Other observations

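Of the 22 adhesion genes without a V5 peak, 16 (72.7%) had one within 100 kb of the gene, beside 46.8% of all coding genes without V5, and 6 did not, namely Itga5, Itga8, Itgae, Itgax, Itgb2l and Lama4. The nearest V5 peaks with the highest scores were those 27.5 kb beyond the end of Lamc3 (3047, rank 227), 27.5 kb beyond the end of Itga11 (1375, rank 779) and 15.3 kb before Itga10 (1031, rank 1181). None of these 3 genes had RNAPOL2 near a TSS. Itga3 had 8 V5 peaks within 100 kb outside the gene and Itgb2 had 7, although neither gene held one. Which gene, if any, such peaks act on was not tested.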
